A study of Mus musculus with 6 samples.

Results

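The ER Hsp70 and Hsp90 chaperone system is taken here as 10 genes of the endoplasmic reticulum (ER), out of 14665 genes in the deposited table. It holds the ER chaperones Hspa5 and Hsp90b1, the exchange factors Hyou1 and Sil1, the J-domain proteins Dnajb9, Dnajb11 and Dnajc3, the accessory proteins Manf and Sdf2l1, and the Hsp70-like Hspa13. The genes were picked by name with the comparison of H/R against control already known, so their differences between the groups are given as a description. No p-value is printed for a member, and counts of members past the threshold stand beside the share of all genes, with nothing read from them. All 10 had a row in the table and all 10 passed the filter on low counts.

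The study sequenced ribosome-depleted RNA of C17.2 cells, with 3 libraries in the control group and 3 in the H/R group (hypoxia/reoxygenation). C17.2 is an immortalized mouse line that the labels call neural stem cells (NSCs), with a wild-type genotype (WT) in both groups. The H/R cells spent 12 h at 5% oxygen and were then cultured for 48 h at standard oxygen, whereas the control cells stayed at standard oxygen. All 6 libraries come from this 1 line in serum-containing medium, and no source states that they were grown as separate cultures, so the spread within a group may be technical.

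Hspa5 (BiP) is the Hsp70 of the ER lumen. It binds unfolded stretches of new secretory and membrane proteins and releases them as it cycles between ATP and ADP. J-domain proteins bring clients to it and start ATP hydrolysis, nucleotide exchange factors reset it, and Hsp90b1 (GRP94) takes over a later set of clients. When unfolded protein accumulates, the sensors IRE1, PERK and ATF6 start the unfolded protein response (UPR), which raises transcription of most of these genes through elements in their promoters.

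The element bound by ATF6 and XBP1 with NF-Y is the ER stress response element (ERSE), written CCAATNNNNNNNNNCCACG. RefSeq promoters (250 bases before to 50 bases after the start site, build GRCm38.p6) were at hand for 6 members, Hspa5, Hsp90b1, Sdf2l1, Dnajb9, Dnajb11 and Dnajc3. On both strands together, 3 of the 6 held an ERSE, against 39 of 32851 promoters of all genes (0.119%). The promoter letters were not used to choose the members. The genes were picked by name, however, and most are known targets of the UPR through such elements. Nothing is therefore read from this share, and the matches are shown as a description. Each is printed on the strand that reads the motif forward, with the 10 fixed letters in capitals and 5 bases on either side.
Hspa5, chr2:34772020-34772048, + strand: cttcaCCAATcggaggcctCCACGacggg
Hsp90b1 distal, chr10:86705633-86705661, - strand: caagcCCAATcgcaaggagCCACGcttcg
Hsp90b1 proximal, chr10:86705528-86705556, + strand: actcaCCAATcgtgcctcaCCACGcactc
Dnajc3, chr14:118937822-118937850, + strand: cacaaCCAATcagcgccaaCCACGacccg
The Hspa5 match spans bases -65 to -47 from the RefSeq start site, and GENCODE vM21 places it in an untranslated exon of a protein-coding Hspa5 transcript. The Hsp90b1 gene lies on the - strand, and its matches span -212 to -194 and, reversed, -107 to -89. The Dnajc3 match spans -105 to -87, before the annotated gene.

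Dnajb11 instead held the related ERSE-II (ATTGGNCCACG), which 12 of all 32851 promoters held (0.0365%). It lies 7 to 17 bases after the start site, with its fixed letters in capitals below.
Dnajb11, chr16:22857847-22857867, + strand: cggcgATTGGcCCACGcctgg
Neither the UPR element TGACGTGG (0.676% of all promoters) nor the amino acid response element TGATGNAA (3.97%) matched in the 6 windows. The core of the hypoxia response element, ACGTG, matched in Hspa5, Dnajb9 and Dnajc3 and in 19.6% of all promoters. TGACGTGG contains ACGTG. With 1 mismatch to the ERSE allowed, a setting added after the data were seen, 494 of all 32851 promoters matched and no further member did, since Sdf2l1, Dnajb9 and Dnajb11 had at least 2 mismatches. A match is a description of letters and not of binding.

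Across all genes, 9 of the 10 members were lower in H/R by the quasi-likelihood test of edgeR (adjusted p under 0.05), and none was higher. Over the 11104 genes tested, 2109 were lower (19.0%) and 2087 higher (18.8%). All 3 H/R libraries lay below all 3 control libraries in the same 9 members and in 24.0% of all genes tested. Since the members were chosen on this contrast, nothing is read from these counts. The median log2 fold change of the 10 members was -2.53, against 0.01 over all genes. Without scaling factors the split over all genes was 1272 lower and 3704 higher, the median of all genes was 0.224 and that of the members -2.32. In bulk RNA, fewer cells with a transcript and less transcript per cell cannot be told apart.

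**Figure D1:**
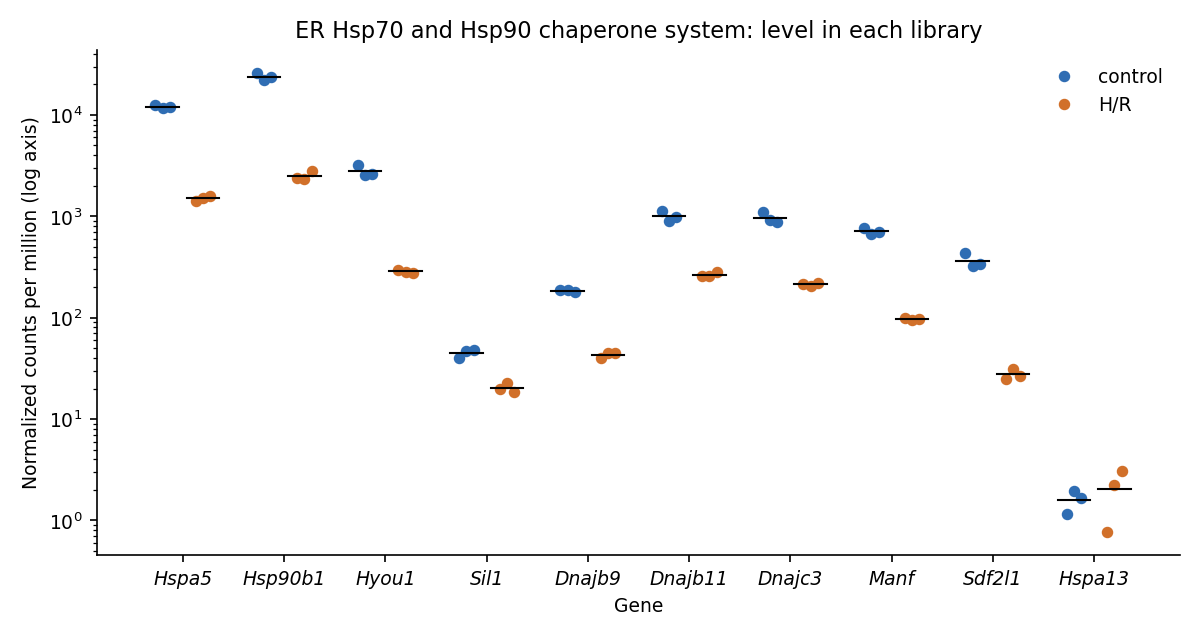
Normalized CPM (log axis) of the 10 members in each of the 3 control and 3 H/R libraries, with a line at the group mean. In 9 members every H/R point lies below every control point, and in Hspa13 the groups overlap.

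Levels are counts per 1000000 gene counts (CPM) after TMM normalization, and log2 fold changes are H/R over control with the standard error (SE) from the edgeR fit. Hspa5 (chr2:34771970-34777547) stood at 12494, 11709 and 12081 CPM in control replicates 1, 2 and 3, and at 1431, 1504 and 1601 CPM in the H/R replicates. The groups lay far apart, and the coefficient of variation of the control libraries was 3.25%. The log2 fold change was -3.00 (SE 0.08).

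Hsp90b1 (chr10:86690209-86705509), the ER Hsp90, follows Hspa5 in the folding of a narrower set of clients, among them integrins and Toll-like receptors. It stood at 25817, 22118 and 23579 CPM in the controls and at 2407, 2351 and 2770 CPM in H/R. This is a 9.50-fold lower level, or -3.25 (SE 0.09) on the log2 scale. The table of annotated genes places the noncoding Gm15344 and the pseudogene 1810014B01Rik over parts of Hsp90b1, the second on the opposite strand. The strand setting of the counting is not given in the sources used here, so reads from opposite strands of such a locus cannot be told apart.

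Hyou1 (chr9:44379490-44392369) is a large Hsp70-like protein that exchanges nucleotide on Hspa5. Its levels were 3198, 2544 and 2636 CPM in the controls and 299, 283 and 275 CPM in H/R. Control replicate 1 stood highest, and the groups did not approach each other. The log2 fold change was -3.29 (SE 0.10), a 9.78-fold lower level.

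Sil1 (chr18:35266396-35499780), the other exchange factor of Hspa5, had a far smaller difference. It stood at 39.8, 47.0 and 48.2 CPM in the controls and at 19.6, 22.8 and 18.3 CPM in H/R. The groups did not overlap, and the log2 fold change was -1.15 (SE 0.15), or 2.22-fold lower. Genes on the opposite strand, among them the antisense AC147989.1 and AC121874.1, overlap the Sil1 locus. With the strand setting not given, their reads cannot be told apart from those of Sil1. The approximate 95% intervals ran from -3.49 to -3.09 for Hyou1 and from -1.44 to -0.86 for Sil1. They are given as a description and not as a test between both genes.

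The J-domain proteins formed a narrow band. Dnajb9 (ERdj4, chr12:44205559-44210326), which brings Hspa5 to IRE1 and serves degradation, was at 188, 189 and 178 CPM in the controls and at 39.7, 45.0 and 45.1 CPM in H/R. Its log2 fold change was -2.09 (SE 0.10), or 4.27-fold lower, with tight groups on both sides.

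Dnajb11 (ERdj3, chr16:22857845-22879634) binds unfolded clients directly and is also secreted. It was at 1120, 902 and 988 CPM in the controls and at 258, 259 and 279 CPM in H/R. Its log2 fold change of -1.92 (SE 0.09), or 3.78-fold lower, was the least after those of Hspa13 and Sil1. The antisense gene Gm30505 overlaps its locus.

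Dnajc3 (P58IPK, chr14:118937976-118981697), a J-domain protein that also restrains PERK, was at 1112, 914 and 871 CPM in the controls. In H/R it was at 214, 206 and 219 CPM. The log2 fold change was -2.18 (SE 0.10), or 4.53-fold lower. The 3 J-domain proteins therefore lay between -2.18 and -1.92, whereas Hspa5, Hsp90b1 and Hyou1 lay between -3.29 and -3.00.

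Manf (chr9:106838312-106891979) is a small ER protein that binds Hspa5 and slows its nucleotide exchange, and that is secreted under stress. It was at 774, 664 and 701 CPM in the controls and at 99.0, 94.8 and 96.9 CPM in H/R. The H/R libraries agreed within a coefficient of variation of 2.15%, and the log2 fold change was -2.88 (SE 0.09), or 7.36-fold lower. Its annotated span overlaps Rbm15b on the same strand and Dcaf1 on the opposite strand.

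Sdf2l1 (chr16:17130138-17132383), a partner of Dnajb11 that keeps clients soluble around Hspa5, had the lowest log2 fold change of the 10. It was at 431, 322 and 342 CPM in the controls and at 24.6, 31.4 and 26.7 CPM in H/R. The log2 fold change was -3.73 (SE 0.14), or 13.2-fold lower, and only 18 of the 11104 genes had a lower one. Its paralog Sdf2, an ER protein of the same fold, was at 31.3 ± 3.21 CPM in the controls and 42.0 ± 1.93 CPM in H/R (SD, n = 3 each). Sdf2 rose by 0.42 on the log2 scale (SE 0.13, adjusted p = 0.023, edgeR), a call that was lost without control replicate 1 (0.34), without H/R replicate 1 (0.42) and without H/R replicate 2 (0.40).

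Hspa13 (STCH, chr16:75745431-75767104), a microsome-associated protein with an Hsp70 ATPase domain and no substrate-binding domain, stood apart. It was at 1.16, 1.95 and 1.65 CPM in the controls and at 0.77, 2.26 and 3.06 CPM in H/R. The groups overlapped, the log2 fold change was 0.35 (SE 0.61) and its approximate 95% interval ran from -0.84 to 1.55. The value turned to -0.07 without H/R replicate 3. Its 6 raw counts (9, 15, 11, 14, 38 and 52) equal those of a retained-intron transcript, ENSMUST00000137806, in the lncRNA table. The same held for 14 of 12064 gene rows with at least 20 counts in all, so this row cannot be told apart from that noncoding transcript.

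**Figure D2:**
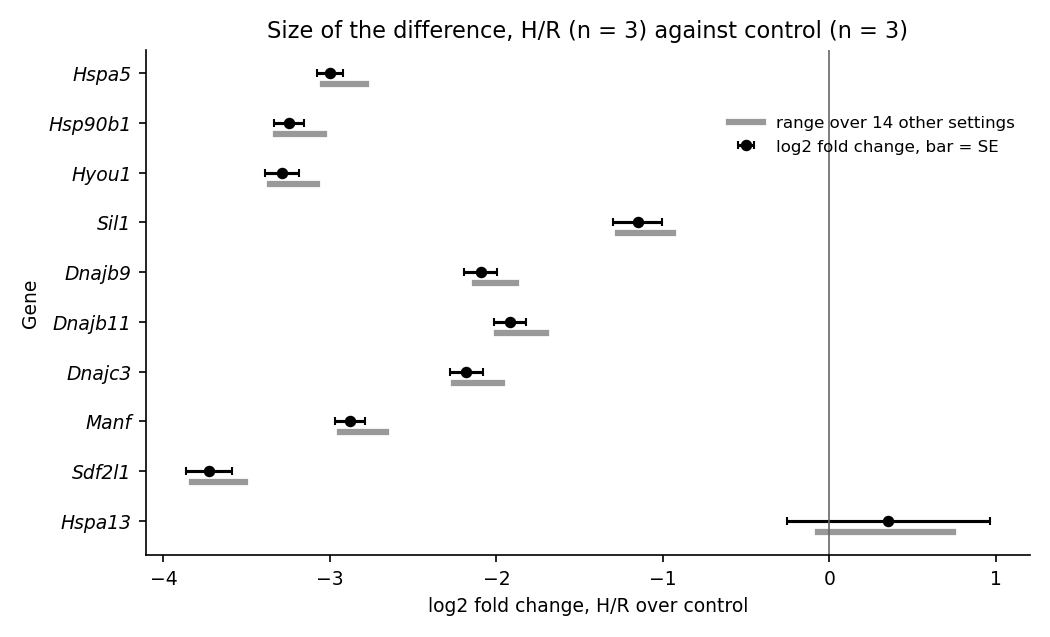
Log2 fold change of each member, H/R over control (points, with SE bars), and the range over 14 other settings of the analysis (grey bars). Sdf2l1 is at -3.73, Sil1 at -1.15 and Hspa13 at 0.35, where the grey bar crosses 0.

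Within the control group, control replicate 1 held the highest level in 7 of the 9 members other than Hspa13, and in 38.5% of the 7747 genes with at least 10 CPM in every library. The highest control library was 1.06 to 1.34 times the lowest in these 9, with a median of 1.21. Over the 7747 genes the median was 1.24. Depth differed between the groups, with 7267809 to 8371882 gene counts in the control libraries and 15639751 to 16830389 in H/R. After random thinning of the H/R counts to the median total of the controls, the members' median log2 fold change was -2.51.

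Together the 10 members held 4.19%, 3.70% and 3.81% of all gene counts in the control libraries. In the H/R libraries they held 0.518%, 0.516% and 0.572%. The shares use no scaling factor. Hspa5 and Hsp90b1 made up 84.8% to 86.1% of the members' counts in the controls and 80.1% to 81.9% in H/R.

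Levels of different genes were compared per kilobase of the longest annotated coding transcript. In the controls the order of CPM per kilobase was Hsp90b1 (8438 ± 660), Hspa5 (3294 ± 107), Hyou1 (622 ± 78.8), Dnajb11 (399 ± 43.7), Sdf2l1 (330 ± 52.5), Manf (317 ± 25.0), Dnajc3 (188 ± 25.1), Dnajb9 (75.0 ± 2.42), Sil1 (26.4 ± 2.66) and Hspa13 (0.374 ± 0.0939), as mean and SD of 3 libraries. The libraries of Dnajb11, Sdf2l1 and Manf overlapped each with its neighbour, so their order is not resolved. Among the 11032 genes with a length, Hsp90b1 had rank 1 and Hspa5 rank 5.

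In H/R, Hsp90b1 (888 ± 80.6 CPM per kilobase) and Hspa5 (412 ± 23.3) still led the members, at ranks 13 and 60 of all genes. Dnajb11 (106 ± 4.80) then stood above Hyou1 (63.6 ± 2.64), the reverse of the control order, with no overlap between these libraries. Manf (43.1 ± 0.926) and Dnajc3 (41.4 ± 1.31) overlapped. Sdf2l1 (24.9 ± 3.14) came next, above Dnajb9 (17.6 ± 1.27) and Sil1 (11.9 ± 1.36).

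The ratio of each member to Hspa5 within a library shows the change in proportions without any scaling between libraries. Per 100 length-scaled counts of Hspa5, Hsp90b1 had 269, 246 and 254 in the controls, against 219, 203 and 225 in H/R. Hyou1 had 20.9, 17.8 and 17.9 in the controls, against 17.1, 15.4 and 14.1 in H/R. Both ratios were lower in H/R without overlap, by a small margin.

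Sdf2l1 had 11.4, 9.12 and 9.38 per 100 of Hspa5 in the controls, against 5.71, 6.93 and 5.53 in H/R, a ratio of the means of 0.607. Manf had 9.27 to 10.1 in the controls and 9.88 to 11.3 in H/R, and these ranges overlapped.

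The J-domain proteins had a higher proportion to Hspa5 in H/R. Dnajb11 had 13.1, 11.3 and 12.0 per 100 of Hspa5 in the controls, against 26.3, 25.2 and 25.5 in H/R, 2.12 times as many. Dnajc3 went from 5.15 to 6.36 in the controls to between 9.77 and 10.7 in H/R, and Dnajb9 from between 2.20 and 2.40 to between 4.14 and 4.46. Sil1 went from 0.687 to 0.866 in the controls to between 2.46 and 3.27 in H/R, 3.60 times as much.

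Of the 9 ratios, Dnajb9, Dnajb11, Dnajc3, Sil1 and Hspa13 were higher in every H/R library, as were 98.1% of all genes tested. Hsp90b1, Hyou1 and Sdf2l1 were lower in every H/R library, as were 0.108% of all genes, which is 12 of 11103. These counts come from the contrast on which the members were chosen and nothing is read from them.

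**Figure D3:**
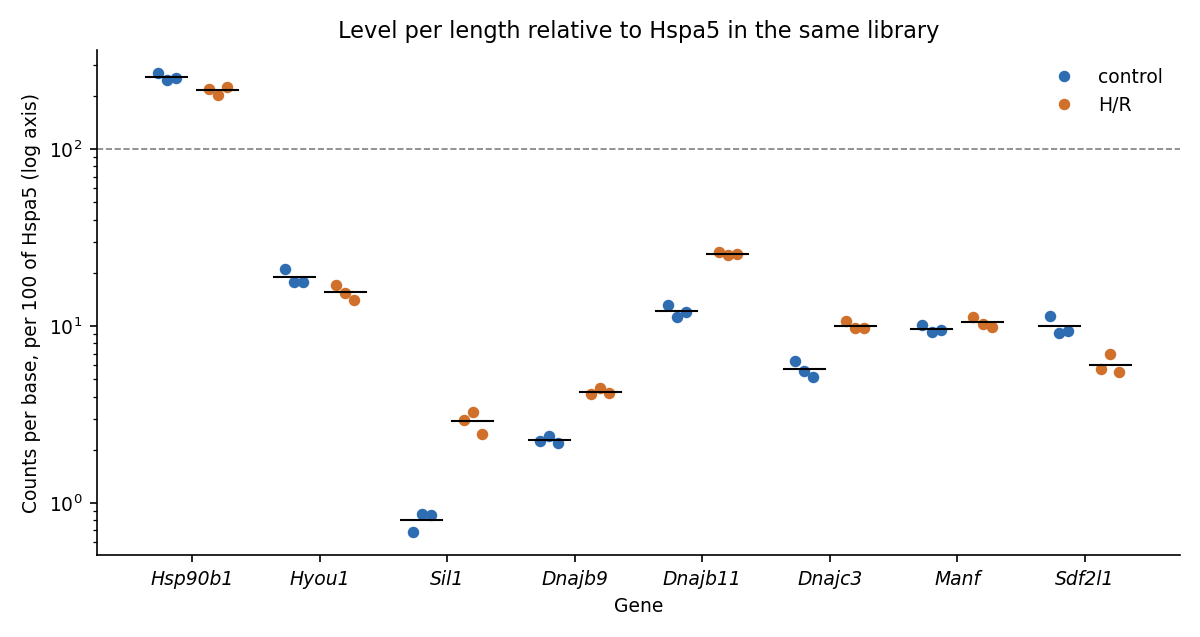
Counts per base of 8 members per 100 counts per base of Hspa5 in the same library (log axis, dashed line at 100), for 3 control and 3 H/R libraries, with a line at the group mean. Dnajb11 is near 12 in the controls and near 26 in H/R, Sdf2l1 is lower in H/R, and Manf overlaps.

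The genes around these chaperones were read as lists, chosen with earlier results of these data known. Genes past the threshold were counted in the fit over all genes. In that fit 19.0% of the 11104 genes tested were lower and 18.8% higher, which is the share to set beside each list. Of 21 tested disulfide isomerases and oxidative folding genes, 12 fell and 2 rose, with a median log2 fold change of -1.03. Pdia4, an isomerase found in complexes with Hspa5, went from 3088 ± 404 to 172 ± 4.20 CPM (SD, n = 3), and Creld2 from 677 ± 95.6 to 50.4 ± 3.00 CPM. Pdia6, which dampens IRE1, changed by -2.86 on the log2 scale (SE 0.08, adjusted p = 5.77e-11, edgeR). Tmx4 and Gpx8, the first a membrane-bound thioredoxin-like protein and the second a peroxidase, rose by 0.44 and 0.57.

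Of 7 tested lectin chaperones of the calnexin cycle, which fold glycoproteins, 5 fell and 1 rose (median -0.40), with 3 lower without scaling factors. Calr, calreticulin, fell from 7285 ± 334 to 951 ± 32.3 CPM, Canx, calnexin, from 3776 ± 165 to 1716 ± 90.5 CPM and Uggt1, the folding sensor of the cycle, from 1443 ± 82.7 to 825 ± 22.6 CPM. Mogs, the glucosidase that trims the first glucose, rose by 0.83 (SE 0.14, adjusted p = 0.000431, edgeR).

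Of 12 tested GRP94 cofactors and ER peptidyl-prolyl isomerases, 6 fell and none rose (median -0.40). Those named were Ppib, the ER cyclophilin, at -1.34 on the log2 scale, Serpinh1, the collagen chaperone, at -1.10 and Fkbp11 at -1.70. Of 15 tested genes of ER-associated degradation, 11 fell and none rose (median -0.72), among them Herpud1 at -2.69, the ubiquitin ligase scaffold Sel1l at -1.83 and Derl1 at -1.37.

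Of 11 other ER J-domain and BiP-modifying proteins, 4 fell and 2 rose (median -0.09). Ficd, which AMPylates Hspa5, went from 26.6 ± 3.99 to 12.7 ± 1.26 CPM (log2 fold change -1.07, SE 0.18, adjusted p = 0.000429, edgeR). Dnajc10 (ERdj5), a J-domain reductase, changed by -0.59 and Dnajc1 by -0.51 on the log2 scale, both past the threshold. Dnajc16 and the Sdf2 gene described above rose, Dnajc16 by 0.47. Dnajc16 lost its call without control replicate 2 (0.44), control replicate 3 (0.38), H/R replicate 1 (0.44) or H/R replicate 2 (0.49). Without scaling factors 2 of the list fell and 5 rose.

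Of 14 tested UPR sensors and transcription factors, 9 fell and none rose (median -0.60). Ddit3 (CHOP) was at 357, 580 and 689 CPM in the controls and at 55.9, 56.9 and 65.6 CPM in H/R, a log2 fold change of -3.19 (SE 0.19, adjusted p = 1.22e-07, edgeR). Control replicate 1 held the lowest control value here, whereas it held the highest in 7 of the 9 members. Atf4 fell from 701 ± 41.2 to 343 ± 5.61 CPM and Ppp1r15a, the phosphatase subunit that ends the PERK signal, from 377 ± 121 to 91.2 ± 1.33 CPM.

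Xbp1 and Atf6, which act on the ERSE, and the sensors Ern1 and Eif2ak3 were named after their values were seen. No NF-Y gene is given here, and 5 of the 14 tested UPR sensors and transcription factors were not called. Xbp1 was at 31.7, 28.4 and 31.0 CPM in the controls and at 12.6, 9.03 and 7.65 CPM in H/R (log2 fold change -1.63, SE 0.20). Atf6 was at 514 ± 15.9 and 332 ± 9.22 CPM, and the sensors Ern1 (IRE1) and Eif2ak3 (PERK) changed by -0.57 and -0.74 on the log2 scale. Counts per gene do not separate the spliced from the unspliced Xbp1 transcript.

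**Figure D4:**
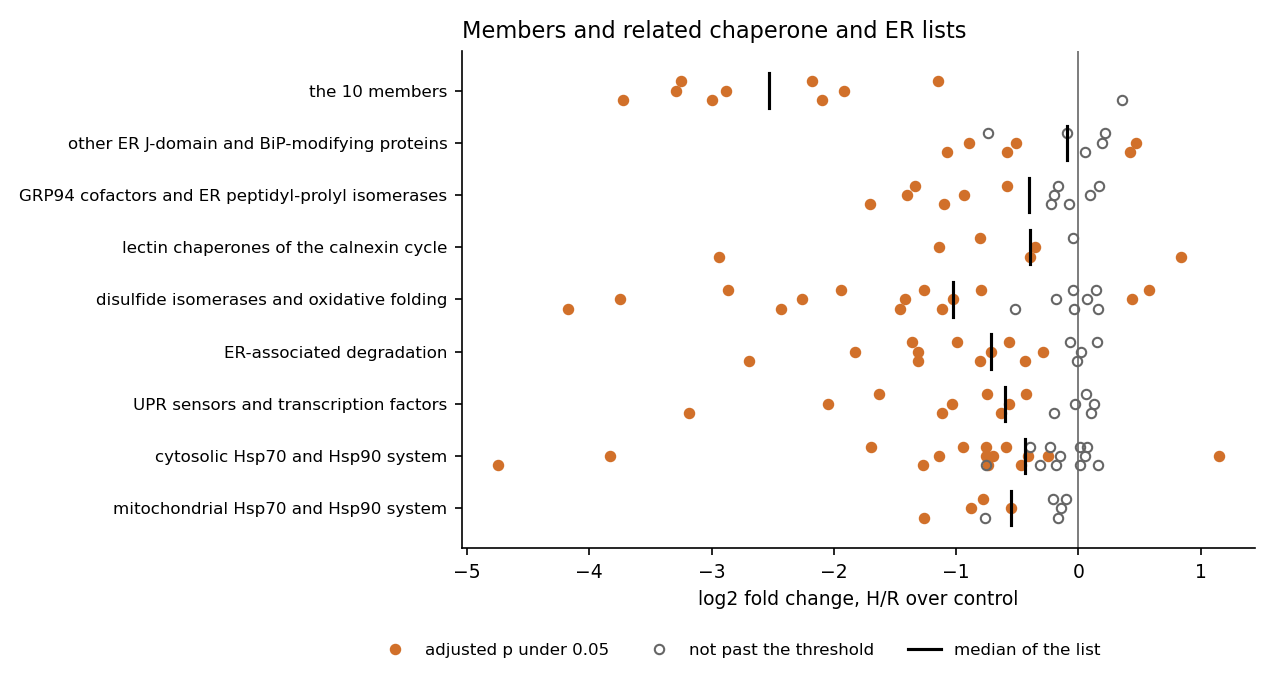
Log2 fold change (H/R over control) of each tested gene in the members and 8 related lists, filled where the adjusted p was under 0.05 and open where not, with a bar at the list's median. The members' median is -2.53 and that of the disulfide isomerases -1.03, while those of the cytosolic and mitochondrial lists are -0.44 and -0.55.

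Among the 15 tested genes with an ERSE in their RefSeq promoter, 12 were lower at the threshold and none was higher, with a median log2 fold change of -1.91. Without the 3 members among them, 9 of 12 were lower and the median was -1.42. Those 9 were Creld2, Calr, Pdia6, Zfp57, Acacb, Alg12, Syvn1, Canx and Hnrnpa3. Creld2, Calr, Pdia6 and Canx also belong to the lists above, chosen with earlier results known, so nothing is read from the count. Zfp57 and Acacb had low levels, at 8.6 and 7.1 CPM in the controls on average. Over the 8303 tested genes with a promoter in the table, 1589 were lower and the median was 0.01.

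The cytosolic Hsp70 and Hsp90 genes, which fold proteins outside the ER and follow the heat shock response, were read in the same way. Of 26 tested, 14 fell and 1 rose (median -0.44), and without scaling factors 9 fell and 3 rose. Hspa8, the constitutive cytosolic Hsp70, was at 2745, 4451 and 6469 CPM in the controls and at 2228, 2276 and 2594 CPM in H/R. Its log2 fold change was -0.94 (SE 0.21, adjusted p = 0.00356, edgeR), and control replicate 1 lay close to the H/R libraries.

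Hsp90aa1 was at 1540, 3129 and 4617 CPM in the controls and at 1358, 1392 and 1464 CPM in H/R. Hsp90ab1 was at 2753, 4150 and 5452 CPM in the controls and at 2465, 2483 and 2361 CPM in H/R. The heat-inducible Hspa1b was at 20.5, 163 and 282 CPM in the controls and at 6.65, 5.17 and 5.41 CPM in H/R. In all 3 the lowest control library was control replicate 1. The log2 fold changes without control replicate 1 and without control replicate 3 were -1.21 and -0.61 for Hspa8, -1.47 and -0.74 for Hsp90aa1, -0.98 and -0.51 for Hsp90ab1, and -5.27 and -3.99 for Hspa1b, all past the threshold. Hspa1b and its near-identical copy Hspa1a (14.8 ± 10.2 and 1.03 ± 0.465 CPM) share reads, so the split between them is uncertain.

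Control replicate 3 held the highest control level in 22 of the 26 cytosolic genes and in 1 of the 9 members, against 35.6% of the 7747 genes with at least 10 CPM in every library. The highest control library was up to 13.8 times the lowest in the cytosolic list (median 1.89) and at most 1.34 times in the members. The summed level of the cytosolic list was 10987, 17766 and 24633 CPM in the controls and 9809 to 10572 CPM in H/R. The number of cytosolic genes that fell was 9 to 17 when single libraries were left out, with 9 without H/R replicate 1, 17 without control replicate 1 and 10 without control replicate 3.

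**Figure D5:**
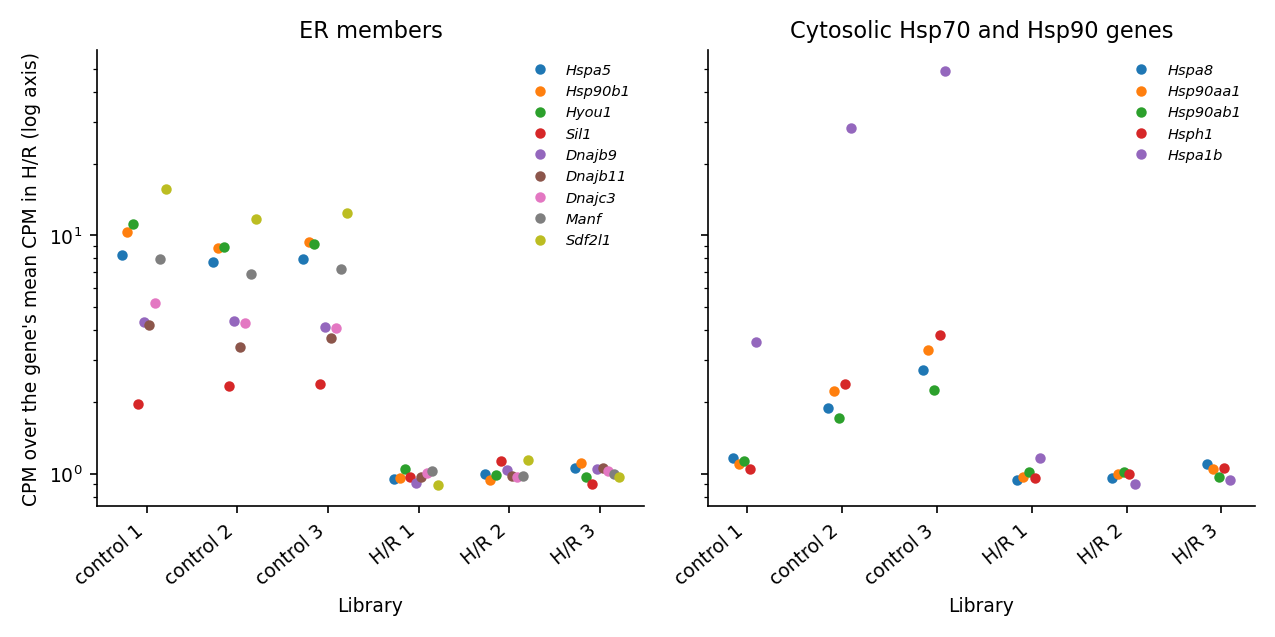
CPM of each gene over its own mean in the H/R group (log axis), in each library, for the 9 members other than Hspa13 (left) and 5 cytosolic Hsp70 and Hsp90 genes (right). The control libraries agree closely on the left. On the right control replicate 3 lies highest and control replicate 1 nearest to the H/R level, though well above it for Hspa1b.

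The families as a whole include the ER members. Of the 13 tested Hsp70 genes 8 fell and 1 rose, and of the 4 tested Hsp90 genes 3 fell. Hspa9, the mitochondrial Hsp70, fell from 1024 ± 95.9 to 555 ± 46.4 CPM and Hsph1, the cytosolic exchange factor Hsp110, from 1144 ± 659 to 474 ± 23.3 CPM. Hspa4 changed by -0.25 on the log2 scale (adjusted p = 0.0456, edgeR), a call lost without any 1 library other than control replicate 1 (-0.30 to -0.17), after thinning (-0.24) and without scaling factors (-0.04). Hspa14, of the ribosome-associated complex, rose from 27.7 ± 3.24 to 61.4 ± 2.74 CPM (log2 fold change 1.15, SE 0.13).

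Hspa2 changed by -0.76 (adjusted p = 0.0502, edgeR), Hspa4l by -0.31, Hspa12a by 0.02 and the mitochondrial Hsp90 gene Trap1 by -0.17, and none of these passed the threshold. Of 9 tested genes of the mitochondrial Hsp70 and Hsp90 system, 4 fell and none rose, with a median of -0.55. Hspe1, the cofactor of the mitochondrial chaperonin, changed by -1.26 and Dnaja3 by -0.55. In the cytosolic list the cochaperone St13 changed by -0.74. Cdnf, the paralog of Manf, was at 0.258, 3.12 and 2.25 CPM in the controls and at 1.27, 1.07 and 1.00 CPM in H/R, which overlap.

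The profile over the 6 libraries most like the mean of the 10 members was that of Pdia3 (ERp57), with a root mean square distance of 0.0578 between centred log2(CPM + 0.5) values. It was followed by Apol9a, Mcf2l, Nucb2 and Irf9, with distances up to 0.143. Values were centred on the mean of all 6 libraries, so a small distance mainly reflects a difference of like size between the groups. The mean of the members includes Hspa13, which itself lay at a distance of 1.32. For Hspa5 alone the nearest were Calr (0.0606) and Pdia6 (0.0841), then Kcnt2, Serpinf1 and Vipr2, with distances up to 0.183. Kcnt2 is near only with the added 0.5, since it had 3.03 CPM in the controls and 0.0196 CPM in H/R on average. Among the members, Manf lay nearest to Hspa5 (0.0946) and Hspa13 farthest (1.65).

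Noncoding transcripts over the members' loci were counted in a separate table, from the same libraries. Of the 11 tested, 9 were lower in H/R at an adjusted p under 0.05, and 2.26% of the 6779 lncRNA transcripts tested were. The sense-overlapping ones share exon sequence with the member's mRNA, so reads of the mRNA can be counted to them. The processed transcript ENSMUST00000152600 at Hsp90b1 was at 365, 404 and 400 CPM of the lncRNA table in the controls and at 41.7, 51.3 and 38.0 CPM in H/R (log2 fold change -3.15, SE 0.23). The retained-intron transcript ENSMUST00000129178 at Hsp90b1 changed by -3.24 (SE 0.36), and ENSMUST00000162801 at Manf by -2.71 (SE 0.46).

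At Hspa5, the sense transcripts ENSMUST00000148308 and ENSMUST00000155595 changed by -3.62 (SE 0.40) and -3.29 (SE 0.56). A transcript that the table calls bidirectional to Hspa5, named after its values were seen, was at 170, 231 and 321 CPM in the controls and at 108, 97.2 and 108 CPM in H/R. Its log2 fold change was -1.20 (SE 0.25), smaller than that of Hspa5 in the gene table, and control replicate 1 was the lowest control library. This transcript ends at chr2:34772066 on the - strand, past the annotated start of Hspa5 at 34771970. Since the strand setting is not given, reads of the Hspa5 mRNA can be counted to this transcript as well. The 2 that were not called were the retained-intron transcript of Hspa13 and the bidirectional transcript at Hyou1.

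Circular RNAs from member genes were near the limit of detection. Of 2805 circRNAs in the table, 5 had a member as host, and none had more than 4 back-splice junction reads in a library, among 1386 to 3335 junction reads in all. The 2 from Hspa5 had 4, 0 and 1 reads and 2, 0 and 1 reads in the controls and none in H/R. The 1 from Dnajb11 had 0, 1 and 2 reads in the controls and none in H/R. Those from Sil1 and Dnajc3 each had 2 reads in 1 H/R library. Differences of this size are not detectable at this depth.

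The label of the cells was read against marker lists. Of 12 NSC markers 7 were tested, with Sox2 at 24.8 to 34.7 CPM in the controls and 30.6 to 31.6 CPM in H/R, and of the 7, 2 rose, 1 fell and 4 did not pass the threshold. Nes, nestin, rose from 196 ± 16.3 to 331 ± 19.2 CPM and Notch1 from 18.8 ± 2.09 to 32.9 ± 3.88 CPM, and Msi2 fell from 52.2 ± 1.80 to 34.9 ± 5.30 CPM. The summed level of the 7 was 1470 to 1571 CPM in the controls and 1716 to 1796 CPM in H/R. Most of this sum was Vim, vimentin, at 1221 ± 51 CPM in the controls and 1329 ± 34 CPM in H/R, which was not called. Sox1, Pax6, Fabp7, Prom1 and Hes5 had no row under these names in the deposited table, so they could not be read. Of 7 mesenchymal or fibroblast markers 5 were tested, led by Col1a1 at 4319 ± 822 and 4135 ± 557 CPM, with sums of 5966 to 8604 CPM in the controls and 5610 to 6991 CPM in H/R. Neuron (2 of 8 tested, led by Map2), oligodendrocyte lineage (2 of 7), astrocyte (1 of 6) and microglia markers (1 of 6) had sums of at most 144 CPM in any library. Gfap, Mog and Sox10 had no reads in the controls and at most 12 in an H/R library. The part of these markers in the members' values was not tested.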

How the data were processed

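C17.2 cells were profiled by RNA-seq after removal of ribosomal RNA, in 3 control and 3 H/R libraries. The authors deposited raw counts per gene. Their notes name cutadapt 1.9.3 for trimming, HISAT2 2.0.4 with mm10 for alignment, HTSeq 0.9.1 for counting and edgeR 3.16.5. The deposited lncRNA table holds counts per transcript and the circRNA table counts of junction reads after STAR 2.5.1b. The strand setting and the annotation release are not given in the sources used here. Beside these counts, 18 columns of other per-sample values were not used, and the authors' own fold changes and p-values were not read.

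Counts were analysed in R 4.3.3 with edgeR 4.0.16 (filterByExpr, TMM, two-sided quasi-likelihood test, Benjamini-Hochberg adjustment over all features tested, threshold 0.05), separately for genes and lncRNA transcripts. The procedure was run on counts simulated from its own fitted means and dispersions. This checks the code, and it cannot test the model because the counts share its assumptions. Gene counts per library were 7267809 to 16830389, and reads amplified by PCR are not independent molecules. The coefficient of variation between replicates was 0.144 for genes and 0.405 for lncRNA transcripts. No library repeated another (chi-square per degree of freedom 8.67 to 28.7). Coordinates and lengths came from GENCODE vM21, where 14495 of 14665 gene IDs matched, and promoters from RefSeq.

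The members and lists were chosen with earlier results of these data known. All 10 members were named, then up to 3 genes per direction and list with the smallest adjusted p, all tested Hsp70 and Hsp90 family genes, the paralogs Sdf2 and Cdnf, the 5 most similar profiles, and up to 5 lncRNAs and circRNAs. DESeq2 1.42.0, other size factors, other filters, thinned H/R libraries, a replicate block and each library left out were the alternatives. Protein sequences were not used here.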

Additional observations from a re-analysis of the deposited data

How the results depend on the processing

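The members were chosen on this contrast, so their calls under other settings describe the settings and do not support the difference. Under each of the 14 alternatives 9 members were lower past the threshold and none was higher. The members' median log2 fold change was -2.58 to -2.45 with single libraries left out and -2.32 without scaling factors. Hspa13 turned to -0.069 without H/R replicate 3 and otherwise ran from 0.17 to 0.74. The members' mean share of counts ran from 3.75% to 4.00% in the controls and from 0.517% to 0.545% in H/R with single libraries left out.

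Over all genes tested, same-numbered libraries did not deviate together (correlations 0.0399, -0.00385 and 0.0158). The summed cytosolic list nevertheless rose from replicate 1 to 3 in both groups. It was at 10987, 17766 and 24633 CPM in the controls and at 9809, 9968 and 10572 CPM in H/R. Whether same-numbered libraries shared a batch was not tested. With the replicate block, 9 members were lower with a median of -2.53, and 1998 genes were lower and 2039 higher. The block gave 135 lower and 154 higher lncRNA transcripts, against 153 and 181. DESeq2 gave 316 and 357, no filter 139 and 248, and single libraries left out 78 to 148 lower and 78 to 184 higher.

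The list counts under other settings were chosen after seeing the data. Without scaling factors, counts lower and higher were 2 and 5 for the other ER J-domain and BiP-modifying proteins and 9 and 3 for the cytosolic list. The lectin chaperones then had 3 lower, and 2 GRP94 cofactors, 5 disulfide isomerases, 1 degradation gene and 1 UPR gene were higher. With single libraries left out, the other ER J-domain and BiP-modifying proteins had 0 to 2 higher, the GRP94 cofactors and the UPR genes 0 to 1 higher each, and the cytosolic list 9 to 17 lower. The cause of these shifts was not tested. Depth limits Hspa13, with 9 to 52 counts per library, and the circRNAs.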
